A study of Mus musculus with 3 samples.

Results

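Wide peaks of TBX5 binding, those spanning 800 bp or more from their first to their last base, numbered 781 among the 28381 peaks mapped in the fetal mouse lung, or 2.75% (exact 95% binomial interval 2.56 to 2.95%). They were chosen by the width in the deposited list alone. Width, fold enrichment and −log10 q all come from the same piled-up reads, so these values describe the wide peaks and are no test of them. The other 27600 peaks are called narrower peaks here.

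TBX5, a T-box factor, regulates genes in the developing heart, in the forelimb and in lung mesenchyme, where it acts with its paralogue TBX4 upstream of Wnt and FGF signals that drive branching. T-box factors bind a short DNA element with the core GGTGTG. In chromatin immunoprecipitation and sequencing (ChIP-seq), DNA fragments cross-linked to the protein are precipitated with an antibody and counted along the genome. A peak is a stretch in which fragments pile up above the local background, and its summit is the base with the highest pile. A single bound site gives a peak about as wide as the fragments, whereas neighbouring sites or an accessible stretch of chromatin can give a wider one.

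The peaks come from whole lungs of CD-1 embryos, an outbred mouse strain, at E14.5, a stage when the airways are branching. There were 2 TBX5 ChIP libraries and 1 library of input chromatin, with 1 lung to a replicate and with no treatment and no genetic change named in the labels. The labels disagree on the tissue: each title says lung, while heart is the stated source of ChIP library 2 and of the input. A single peak list stands for all of them, so there is no value per library, no spread between replicates and no known depth. Intervals below cover counting error only, and peaks of 1 list are not replicates, so no p-value is given. In whole lung, strong binding in few cells and weak binding in many cells cannot be told apart.

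The stretch just before gene starts covered by wide peaks was richer in CG dinucleotides than that before starts covered by narrower peaks. RefSeq lists starts of protein-coding genes in GRCm38.p6 (build mm10), and the 250 bases before a start were read from that table. A wide peak covered 130 listed starts, of 111 genes. The median window before them held 25.5 CG dinucleotides (quartiles 19 and 31) and 71.2% G or C (64.0 and 75.9%). A narrower peak covered 2673 starts, and since such peaks reached a median of 168 bp upstream, most of these windows lie partly outside the peak. They held 20 CG dinucleotides (14 and 26) and 63.6% G or C. The 18242 starts under no peak had 8 CG dinucleotides (2 and 17) and 54.4% G or C. The 6 windows printed next are examples from both kinds of wide peak, namely those of the 3 widest peaks under 10-fold and the 3 widest at 10-fold or more that cover a listed start and reach at least 250 bases upstream of it. Each reads 5′ to 3′ toward the gene start, from RefSeq GRCm38.p6, with CG dinucleotides in capitals.
Tbl1xr1: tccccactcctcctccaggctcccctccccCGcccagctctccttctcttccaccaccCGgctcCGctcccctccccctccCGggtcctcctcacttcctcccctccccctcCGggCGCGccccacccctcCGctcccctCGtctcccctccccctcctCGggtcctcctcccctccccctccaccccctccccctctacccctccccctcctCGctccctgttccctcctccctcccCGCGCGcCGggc
Rap2c: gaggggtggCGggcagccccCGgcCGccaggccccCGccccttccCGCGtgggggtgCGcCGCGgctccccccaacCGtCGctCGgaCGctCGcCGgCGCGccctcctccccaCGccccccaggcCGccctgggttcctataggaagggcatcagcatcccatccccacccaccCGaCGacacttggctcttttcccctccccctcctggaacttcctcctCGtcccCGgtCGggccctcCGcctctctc
Rfx3: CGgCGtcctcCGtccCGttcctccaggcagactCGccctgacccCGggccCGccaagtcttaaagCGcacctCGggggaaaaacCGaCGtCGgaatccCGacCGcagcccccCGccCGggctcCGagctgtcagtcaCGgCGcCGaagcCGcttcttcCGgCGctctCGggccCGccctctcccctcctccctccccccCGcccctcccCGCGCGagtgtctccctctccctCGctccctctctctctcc
Hoxa2: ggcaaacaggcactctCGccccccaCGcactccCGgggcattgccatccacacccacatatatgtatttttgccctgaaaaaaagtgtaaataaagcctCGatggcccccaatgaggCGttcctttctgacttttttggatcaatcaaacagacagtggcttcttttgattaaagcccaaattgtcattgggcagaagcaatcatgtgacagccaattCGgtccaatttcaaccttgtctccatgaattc
Adgrl1: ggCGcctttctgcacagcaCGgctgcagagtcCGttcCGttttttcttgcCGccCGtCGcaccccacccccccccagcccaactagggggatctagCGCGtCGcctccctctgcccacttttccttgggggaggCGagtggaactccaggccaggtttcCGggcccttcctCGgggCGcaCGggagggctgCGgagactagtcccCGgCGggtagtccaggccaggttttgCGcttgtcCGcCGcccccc
Ephb4: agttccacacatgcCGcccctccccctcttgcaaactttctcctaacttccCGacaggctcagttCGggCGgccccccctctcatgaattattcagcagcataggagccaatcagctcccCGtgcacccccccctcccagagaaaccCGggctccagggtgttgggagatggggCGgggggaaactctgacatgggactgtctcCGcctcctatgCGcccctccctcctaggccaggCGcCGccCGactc
The first 3 lie under peaks of 9.51, 5.02 and 8.09-fold, and the last 3 under peaks of 29.1, 10.2 and 34.9-fold. Tbl1xr1, which encodes a subunit of a nuclear receptor corepressor complex, has its window at chr3:22076402-22076651 (plus strand). Rap2c, a small GTPase gene, has it at chrX:51018019-51018268 (minus strand) and Rfx3, a transcription factor gene of ciliated cells, at chr19:28011167-28011416 (minus strand). The window of Hoxa2, a homeodomain patterning gene, is at chr6:52164832-52165081 (minus strand). That of Adgrl1, an adhesion receptor gene, is at chr8:83899848-83900097 (plus strand), and that of Ephb4, the receptor gene for ephrin-B2, at chr5:137349859-137350108 (plus strand). The number of CG dinucleotides was 15, 25 and 30 in the first 3 windows, 6 before Hoxa2, 21 before Adgrl1 and 12 before Ephb4. Hoxa2 thus had the poorest window of the 6 under the widest of these peaks.

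Among starts covered by peaks under 10-fold, CG content was the same or higher with each step in width, and at 10-fold or more it did not follow width throughout. Below 10-fold the median window held 20 CG dinucleotides under peaks of less than 300 bp (1100 windows), 21 at 400 to 599 bp (575 windows), 22 at 600 bp to under 800 bp (188 windows), 27 at 800 to 999 bp (63 windows) and 28 at 1000 bp or more (22 windows). G or C made up 62.8% of the window in the first of these groups and 73.6% in the last. Under peaks of 10-fold or more the medians were 17 at 300 to 399 bp (57 windows), 18 at 400 to 599 bp (101 windows), 20.5 at 600 bp to under 800 bp (58 windows), 24 at 800 to 999 bp (29 windows) and 20 at 1000 bp or more (16 windows). The part of base composition in the width of these peaks was not tested.

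The T-box motif was not found more often in these windows than in others. The intervals include the shares of the other windows, so a difference in either direction cannot be told from these counts. The motif AGGTGTGA, on either strand, was in 0 of the 130 windows at wide peaks. Taken as 3 counts of the total, this allows a share of up to 2.31%, and the exact 95% interval reaches 2.80%. AGGTGTGA was in 0.636% of windows at narrower peaks and in 1.01% of all 21045 windows. The shorter core GGTGTG, which the longer motif contains, was in 16 of the 130 windows (12.3%, exact 95% interval 7.20 to 19.2%), in 15.8% under narrower peaks and in 15.9% of all. Of the printed windows it was in that of Hoxa2, on the strand opposite to the one printed. The windows cover only the 250 bases before listed starts, and the sequence of wide peaks elsewhere was not analysed here.

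Wide peaks ranged from 800 to 1979 bp, with a median of 938 bp (quartiles 854 and 1072 bp), against 286 bp for narrower peaks. They covered 0.776 Mb, or 7.92% of the sequence under all peaks. Fold enrichment at the summit, the ratio of ChIP signal to local background that the authors' caller gave, had a median of 16.9 (quartiles 10.5 and 27.4), against 6.17 in narrower peaks. It ran from 3.12 to 99.0, the highest value of the list. Across all 28381 peaks, Spearman's rho between width and fold was 0.62, and within the wide peaks it was 0.14. These are descriptions across peaks that share the same libraries. The limit of 800 bp marks no step: the 33 peaks of less than 10 bp above it had folds of 4.42 to 34.1 (median 13.4), and the 43 peaks up to 10 bp short of it had 4.46 to 51.5 (median 12.8).

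**Figure D1:**
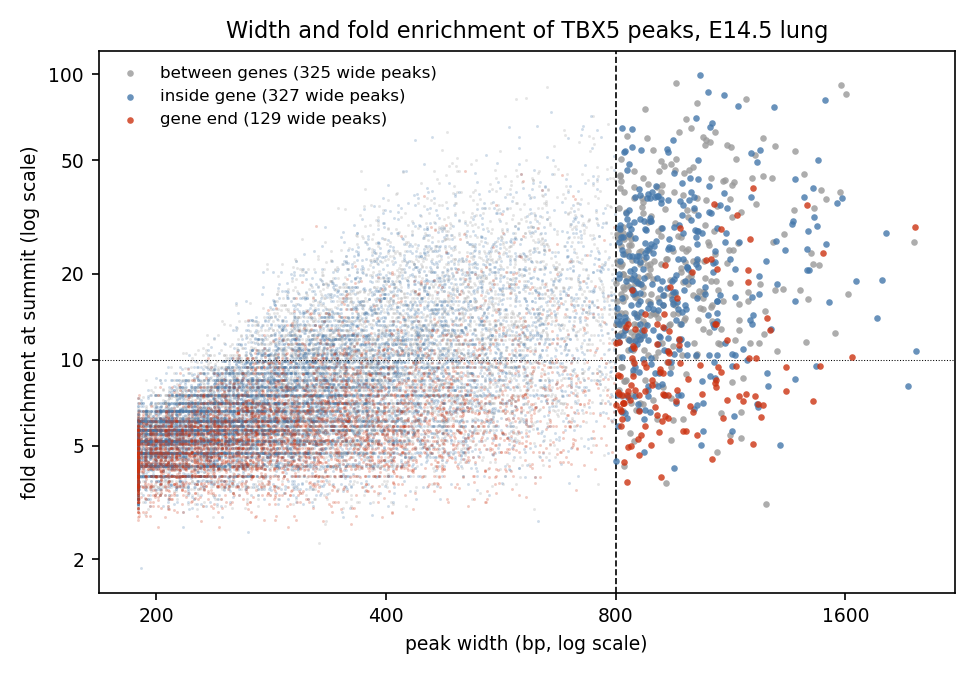
Fold enrichment at the summit (log axis) against width in bp (log axis) for all 28381 peaks, coloured by position; the 781 wide peaks right of the dashed line at 800 bp are drawn larger, and the dotted line marks 10-fold. Wide peaks at gene ends sit mostly below 10-fold (83 of 129), and those elsewhere mostly above it (558 of 652).

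Taken as 1 class, wide peaks had shares at, inside and between genes close to those of narrower peaks, but peaks below and above 10-fold differed. Of the 781 summits, 129 (16.5%, 14.0 to 19.3%) were at most 1 kb from a gene end, which is the first or the last base of a protein-coding gene. A further 327 (41.9%, 38.4 to 45.4%) lay inside genes and 325 (41.6%, 38.1 to 45.2%) between genes. For narrower peaks these shares were 17.6%, 41.4% and 41.0%. From summit to gene end the median was 30.3 kb for wide and 27.7 kb for narrower peaks. Wide peaks under 10-fold were at a gene end in 83 of 177 cases (46.9%, 39.4 to 54.5%), against 20.1% (19.6 to 20.7%) of the 22190 narrower peaks under 10-fold. Wide peaks of 10-fold or more were at a gene end in 46 of 604 cases (7.62%, 5.63 to 10.03%), against 7.12% (6.45 to 7.83%) of narrower ones.

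Among the weaker peaks the share at gene ends was higher the wider the peak, and among the stronger it showed no such order. Under 10-fold, the share at gene ends was 17.98% for peaks of less than 300 bp, 21.2% at 300 to 399 bp, 27.0% at 400 to 599 bp and 33.1% at 600 bp to under 800 bp. It was 46.3% (56 of 121) at 800 to 999 bp and 48.2% (27 of 56) at 1000 bp or more. At 10-fold or more the shares in the same order were 6.22%, 7.001%, 6.995%, 8.03%, 6.35% and 9.73%, with overlapping intervals. Wide peaks under 10-fold had a higher median fold than narrower ones under 10-fold (7.45 against 5.65). Within the band of 5 to 10-fold the shares were 46.6% (38.8 to 54.6%) for wide and 16.9% (16.4 to 17.5%) for narrower peaks. In the band under 5-fold they were 50.0% (7 of 14, 23.0 to 77.0%) and 27.4% (26.4 to 28.5%).

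**Figure D2:**
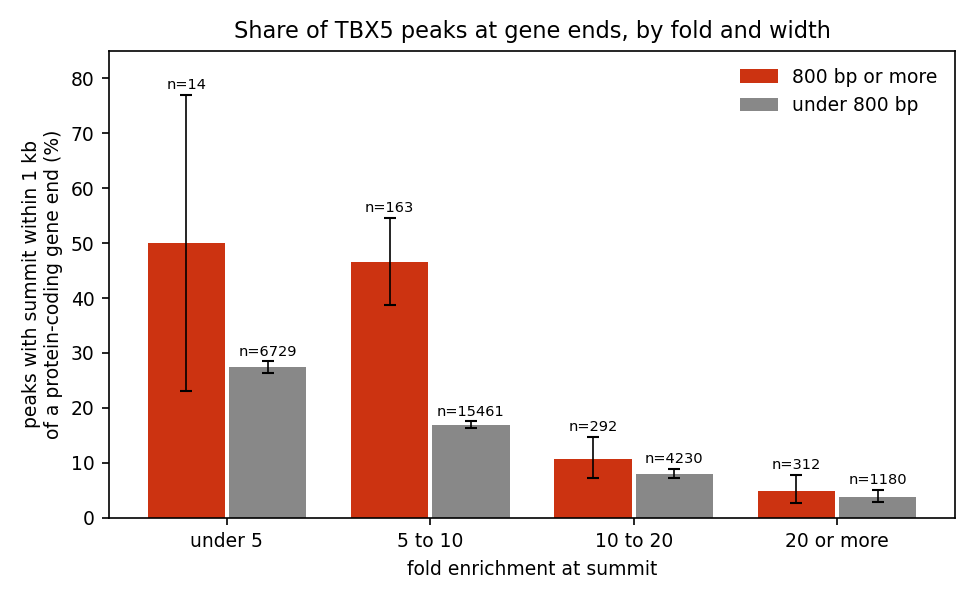
Percent of peaks whose summit lies within 1 kb of a protein-coding gene end, in 4 bands of fold enrichment, for peaks of 800 bp or more and narrower peaks; error bars are exact 95% binomial intervals and n is the number of peaks. From 5 to 10-fold the share is 46.6% for wide and 16.9% for narrower peaks, while at 20-fold or more it is 4.81% and 3.81%.

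Read the other way, 1.82% (1.46 to 2.26%) of gene-end peaks under 10-fold were wide, against 0.528% (0.427 to 0.645%) of peaks under 10-fold elsewhere. At 10-fold or more the shares were 10.7% (7.92 to 14.0%) and 9.99% (9.22 to 10.8%). At 20-fold or more, 312 of 1492 peaks (20.9%) were wide.

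Most wide peaks at gene ends were at starts. For 101 of them the RefSeq table of starts gives the strand of the nearest gene, and 95 (94.1%, 87.5 to 97.8%) were nearest its first base and 6 its last. For 25 more the strand is not listed. Narrower gene-end peaks were nearest the first base in 91.8% (90.9 to 92.6%) of 3849 cases. The table lists no starts on chromosome 18, so the 29 wide peaks there are left out of this count and the next. Of the remaining 752 wide peaks, 104 (13.8%) covered a listed start, 69 of them with under 10-fold enrichment and 35 with 10-fold or more. A wider peak covers more bases, so this share is not compared with that of narrower peaks. Of these 104 peaks, 86 were counted above as gene-end peaks. The summits of the other 18 lay inside genes, more than 1 kb from a gene end.

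By the medians, peaks over starts of both kinds reached farther upstream than into the gene. Upstream of the start the wide peaks reached a median of 552.5 bp (quartiles 358.5 and 785 bp), and downstream 415.5 bp (205.75 and 563 bp). Narrower peaks reached 168 and 143 bp. The longer side was upstream in 64 of 104 (61.5%, 51.5 to 70.9%), and the summit lay upstream in 77 of 104 (74.0%, 64.5 to 82.1%), at a median of 107 bp before the start. The longer side was upstream in 56.5% (54.4 to 58.5%) of narrower peaks. At 10-fold or more it was upstream in 57.1% (39.4 to 73.7%) of wide and 64.4% (57.1 to 71.2%) of narrower ones. The interval for these strong wide peaks includes an even split. For the 2347 narrower peaks over starts, the summit lay upstream in 55.1% (53.1 to 57.1%) and at a median of 11 bp before it. The summit was upstream in 52 of 69 wide peaks under 10-fold (75.4%) and in 25 of 35 at 10-fold or more (71.4%, 53.7 to 85.4%). In narrower peaks it was upstream in 54.2% (52.1 to 56.4%) under 10-fold and in 64.9% (57.6 to 71.7%) at 10-fold or more, so the intervals of wide and narrower peaks overlap in the stronger band. A listed start on the other strand within 1 kb was present for 11 of the 104 wide peaks (10.6%, 5.40 to 18.1%) and for 13.0% of the narrower peaks. Without those 11, the summit lay upstream in 70 of 93 (75.3%).

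**Figure D3:**
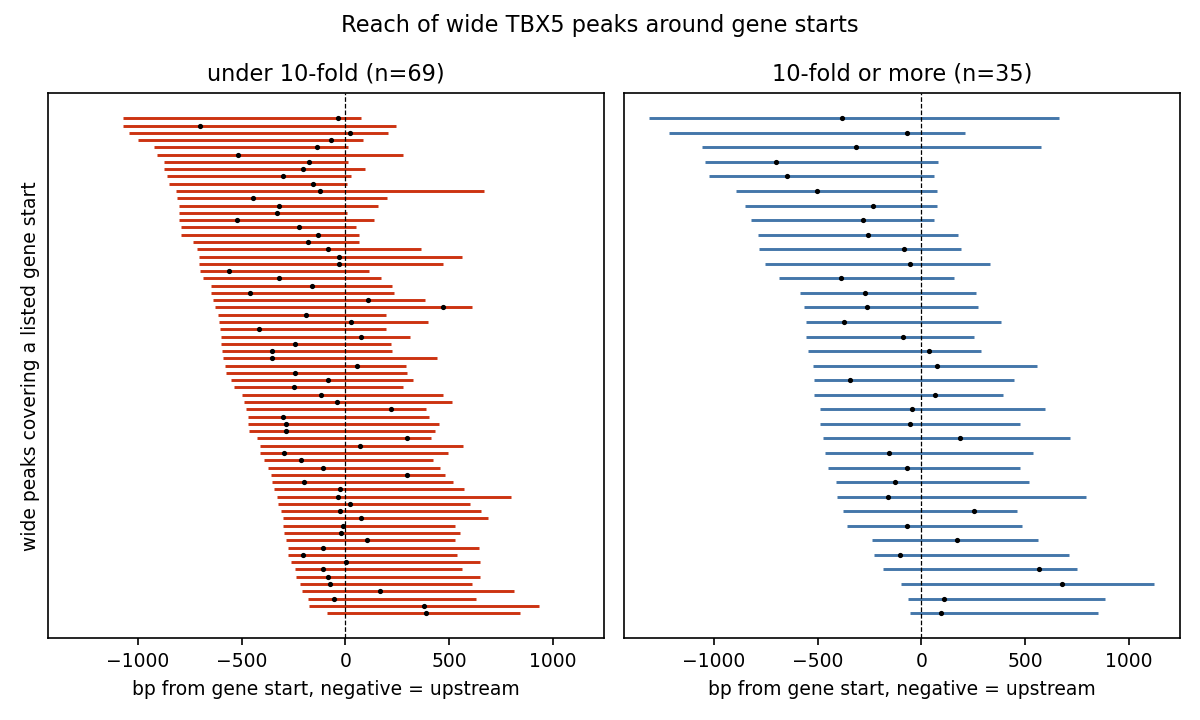
Each line is 1 of the 104 wide peaks that cover a listed start of a protein-coding gene, drawn in bp from that start with upstream to the left, and the dot is its summit; the panels hold the 69 peaks under 10-fold and the 35 of 10-fold or more. The dots lie left of the start in 77 of 104 peaks.

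Among the named wide peaks that cover a gene end, the 5 widest mixed both kinds. The peak over Hoxa2 spanned 1973 bp on chromosome 6 from 52164169 to 52166141 with 29.1-fold enrichment. The peak over Adgrl1 spanned 1632 bp on chromosome 8 from 83899041 to 83900672 and reached 10.2-fold. At Dtd1, which encodes a tRNA proofreading enzyme, 1614 bp on chromosome 2 from 144768409 to 144770022 were covered at 17.0-fold, with the summit 1.03 kb from the gene end. An end of Tbx3, which encodes a T-box paralogue of TBX5, was under 1494 bp on chromosome 5 from 119670216 to 119671709 (23.7-fold). Tbl1xr1 had 1482 bp on chromosome 3 from 22075836 to 22077317 (9.51-fold). At the other extreme, the 5 wide peaks of lowest fold included those at the ends of Neo1, the netrin receptor gene neogenin (828 bp, 3.73-fold), and Cdk4, a kinase gene of the cell cycle (916 bp, 3.90-fold). The other 3 of the 5 lay 46.3 kb from Med13l, a Mediator subunit gene (1261 bp, 3.12-fold, the lowest of all wide peaks), 87.2 kb from 1700001O22Rik (932 bp, 3.72-fold), and inside Lrmda, 426 kb from its nearer end (954 bp, 4.19-fold).

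After Tbl1xr1, other wide gene-end peaks under 10-fold, chosen for their width after the values were seen, lay at Skil, which encodes a repressor of TGF-beta signalling (1452 bp, 7.15-fold), at the transcription factor gene Nfib (1337 bp, 7.80-fold), at Neurl4 (1249 bp, 6.93-fold) and at Gatad2b, a subunit gene of the NuRD chromatin remodelling complex (1241 bp, 6.28-fold). Across the 129 gene-end peaks the fold had a median of 8.48 (quartiles 6.93 and 11.8) and reached 40.04.

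Wide peaks away from gene ends were mostly strong. Their fold had a median of 18.8 (quartiles 12.5 and 29.4), and 94 of 652 (14.4%) were under 10-fold. The 5 wide peaks of highest fold were all in this class. They lay inside Ghr, the growth hormone receptor gene (1033 bp, 99.0-fold), 302 kb from Mpdz, a scaffold gene (960 bp, 93.3-fold), and 266 kb from Osr1, a transcription factor gene of mesenchyme (1577 bp, 91.4-fold). The next 2 were inside Mipep, a mitochondrial peptidase gene (1056 bp, 86.2-fold), and 47.1 kb from A430057M04Rik (1601 bp, 84.9-fold). In all 5 the summit stood between 32.6% and 48.9% of the width. No protein-coding gene end lay within 100 kb of 199 wide peaks (25.5%, 22.5 to 28.7%), against 23.8% (23.3 to 24.3%) of narrower peaks. The 5 widest of these 199 were inside Dnm3, a dynamin gene (1807 bp, 27.8-fold), inside Rbms3, which encodes an RNA-binding protein (1652 bp, 18.8-fold), near Osr1 as above, inside Arhgap15, a Rac GTPase-activating gene (1561 bp, 35.3-fold), and inside Lrmda (1506 bp, 81.4-fold).

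The 10 widest peaks lay at loci of different kinds, the first 2 of them in Hox clusters. The widest of all covered 1979 bp inside Hoxb3, on chromosome 11 from 96345015 to 96346993, at 10.7-fold, and the next was the peak over Hoxa2. The third, of 1966 bp, lay 3.74 kb outside Tex19.2, a germline gene, on chromosome 11 from 121121037 to 121123002 (25.9-fold). The fourth, of 1930 bp, lay inside the glucocorticoid receptor gene Nr3c1 on chromosome 18 with 8.09-fold enrichment, and its summit stood at 9.61% of the width. Dnm3 held the fifth and the seventh (1807 and 1759 bp; 27.8 and 14.0-fold). The sixth, of 1787 bp, was 3.64 kb from the end of Rtn3, a reticulon gene of the endoplasmic reticulum, inside 2700081O15Rik (18.97-fold). Rbms3, Adgrl1 and Dtd1 completed the 10. Their folds ran from 8.09 to 29.1, so the widest peaks were not the strongest.

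Summits stood farther from the centre in wide peaks than in narrower ones, most of all in the weak wide peaks. The distance of the summit from the centre had a median of 16.1% of the width (quartiles 8.07 and 26.7%), or 159.5 bp, where 50% would be the edge. In narrower peaks it was 9.52% (4.23 and 16.9%), or 27 bp. The summit lay between 33.3% and 66.7% of the width in 400 of 781 wide peaks (51.2%, 47.7 to 54.8%) and in 74.4% (73.8 to 74.9%) of narrower peaks. By width the median was lowest at 300 to 399 bp (5.25%), rose to 12.8% at 400 to 599 bp and 16.1% at 600 bp to under 800 bp, and was 17.2% at 800 to 999 bp and 15.3% at 1000 bp or more. A narrower peak leaves less room for an off-centre summit in bp, which the share of the width takes into account only in part.

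Fold divided the wide peaks here too. Under 10-fold the median distance from the centre was 23.1% of the width, and 28 of 177 summits (15.8%, 10.8 to 22.0%) lay in the outer parts of the peak, before 16.7% or beyond 83.3% of the width. At 10-fold or more the median was 14.6% and 15 of 604 summits (2.48%, 1.396 to 4.06%) lay there. For narrower peaks the corresponding medians were 10.1% and 7.18%. Their outer shares were 3.50% under 10-fold, or 9.01% under 5-fold, and 1 of 5410 at 10-fold or more, and over all peaks the outer share was 2.89%. The summit was nearer the lower coordinate in 51.1% (47.5 to 54.6%) of wide peaks. The 5 most off-centre were in peaks at the end of Nynrin (816 bp, summit at 9.13% of the width), 35.2 kb from Kcnrg (1098 bp, 9.24%), 76.9 kb from Chd2, a chromatin remodeller gene (1129 bp, 90.7%), inside Nr3c1, and inside Rin3, a Rab5 regulator gene (1040 bp, 90.1%). All 5 were under 10-fold, at 5.45 to 8.09. The list gives 1 summit per peak, so further maxima within a wide peak could not be counted.

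**Figure D4:**
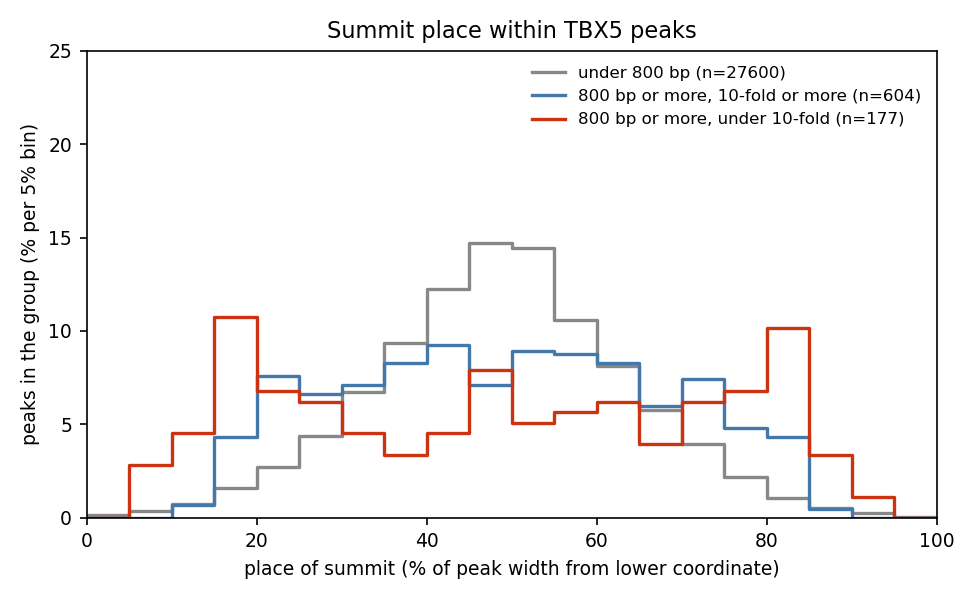
Place of the summit in percent of the peak width from the lower coordinate, as the percent of peaks in bins of 5%, for the 27600 narrower peaks and for wide peaks of 10-fold or more (604) and under 10-fold (177). Summits of narrower peaks cluster at the centre (74.4% between 33.3% and 66.7% of the width), those of strong wide peaks are spread more evenly (55.8%), and those of weak wide peaks are least often there (35.6%).

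Wide peaks had close neighbours more often than narrower ones, but the intervals overlapped at gene ends, under 10-fold and at 20-fold or more. Another summit lay within 10 kb of 485 wide peaks (62.1%, 58.6 to 65.5%), against 49.8% (49.2 to 50.4%) of narrower peaks, and the median distance to the nearest other summit was 5.24 and 10.1 kb. Inside genes the share was 71.6% for wide and 52.8% for narrower peaks, between genes 58.5% and 49.02%, and at gene ends 47.3% (38.4 to 56.3%) and 44.6% (43.2 to 46.0%). By width it went from 47.2% under 300 bp to 66.3% at 1000 bp or more. Strength moved with it: among narrower peaks the share was 48.4% under 10-fold and 55.5% at 10-fold or more, and among wide peaks 54.8% and 64.2%. The part of fold in the difference between wide and narrower peaks was not tested beyond these bands. The edge of another peak was within 500 bp of 158 wide peaks (20.2%, 17.5 to 23.2%) and of 15.1% (14.7 to 15.6%) of narrower peaks. At gene ends it was within 500 bp of 21.7% of wide and 23.1% of narrower peaks.

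There were 26 runs in which wide peaks followed each other with summits at most 10 kb apart, holding 56 wide peaks (7.17%), and 4 of these runs held 3. In Hoxb3, 3 wide peaks stood between 96340571 and 96346993 on chromosome 11, with 74 bp as the smallest gap to a neighbour. At Hoxa4, 3 stood within 3.31 kb on chromosome 6 from 52189042 to 52192348 (9.06 to 29.0-fold). The other runs of 3 were around an end of Tbx3 on chromosome 5 from 119667464 to 119681095 (9.45 to 24.5-fold) and inside Lrmda on chromosome 14 from 22745799 to 22761108 (36.9 to 81.4-fold). The Hoxa cluster as a whole, on chromosome 6 from 52155367 to 52260880, held 33 peaks, 6 of them wide (18.2%). The Hoxb cluster, on chromosome 11 from 96194316 to 96368254, held 42, 4 of them wide (9.52%). The Hoxc and Hoxd clusters held 0 of the peaks analysed here, of any width. Over all peaks the share was 2.75%. Hox genes encode homeodomain factors that set position along the body axis, and the genes nearest the wide peaks were Hoxa2, Hoxa3, Hoxa4, Hoxb3 and Hoxb4.

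Peaks were assigned to whichever protein-coding gene ended or began closest to the summit, up to 100 kb away, which placed 582 wide peaks on 523 genes. That is 2.42% of the 21631 protein-coding genes, whereas 39.8% had a peak of any width, and 6.08% of the genes with a peak had a wide one. Most, 471 genes, had 1 wide peak, 45 had 2 and 7 had 3. The 7 were Hoxb3, Dnm3, Tbx3, Hoxa4, Arsb, Gm30733 and Ust. Arsb and Ust encode a sulfatase and a sulfotransferase of chondroitin and dermatan sulfate. Their wide peaks reached 18.8 and 19.3-fold, none at a gene end, and those of Gm30733 ran from 21.9 to 50.4-fold. Boc, a hedgehog co-receptor gene (2 wide peaks, up to 1574 bp), Bcas3 (2, up to 1431 bp) and Hoxa3 (2, up to 1375 bp) followed by width. Counted by the gene body they lay in, Lrmda held the most wide peaks (9), followed by Hoxa3 and Rad51b with 5 each. The bodies of Lrmda and Rad51b are long (1037 and 551 kb), and that of Hoxa3 is 44.0 kb.

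In 14 gene lists, the share of genes with a wide peak ran from 0 to 33.3%, and the order of the lists changed with the width limit. From 600 bp the counts were 17 of 27 for lung mesenchyme transcription factors, 10 of 15 for the hedgehog pathway, 10 of 38 for Wnt and 9 of 19 for FGF, and from 1000 bp they were 7, 1, 1 and 1. At 800 bp, with assignment up to 10 kb in place of 100 kb, they were 8, 2, 5 and 1. The count for smooth muscle genes then went from 3 to 0. The counts were not scaled by the length of sequence in which a peak is assigned to a gene, so they are set beside those for peaks of any width. Nor were they scaled by the number of peaks per gene, and a gene with more peaks has more places for a wide one. Among lung mesenchyme transcription factors with a peak, that number ran from 2, as for Hoxb5, to 33 for Nfib. The part of peak number in these shares was not tested. Transcription factors of lung mesenchyme had a wide peak in 9 of 27 genes (33.3%, 16.5 to 54.0%), or 39.1% of the 23 with any peak, and 85.2% of the list had a peak. The widest was at Tbx3. The median over the genes with a peak of their widest peak was 677 bp, against 356 bp over all genes with a peak.

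Hedgehog pathway genes had a wide peak in 4 of 15 cases (26.7%, 7.79 to 55.1%), and 14 had any peak. The 4 with a wide peak were the co-receptor gene Boc, the transcription factor gene Gli3, the receptor gene Ptch1 and the inhibitor gene Sufu. The widest peak of Boc lay 57.7 kb from the gene (1574 bp on chromosome 16 from 44615801 to 44617374, 38.8-fold). The wide peak of Gli3 lay over the start (967 bp, at chr13:15462830-15463796, 11.2-fold). Wnt pathway genes had a wide peak in 8 of 38 cases (21.1%, 9.55 to 37.3%), and 32 had any peak. The widest were those of Ror1, a Wnt receptor gene (1109 bp on chromosome 4 from 100101548 to 100102656, 84.7-fold), and Tcf7l2, a transcription factor gene of the pathway (975 bp on chromosome 19 from 55742857 to 55743831, 7.52-fold). Of the 8, the gene end was within 1 kb for Fzd1 alone. BMP and TGF-beta genes had a wide peak in 5 of 31 cases (16.1%, 5.45 to 33.7%), and 29 had any peak. The widest lay 3.96 kb from Id2, a target gene of BMP signals (1130 bp, 18.6-fold), and at the end of the inhibitor gene Smad7 (1081 bp, 8.29-fold).

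FGF pathway genes all had a peak, and 2 of 19 had a wide one (10.5%, 1.30 to 33.1%), against 2.42% of all genes. The 2 were the receptor gene Fgfr2 and the feedback inhibitor gene Spred1. The widest of Fgfr2 lay 12.6 kb from the gene (1114 bp on chromosome 7 from 130278500 to 130279613, 42.5-fold). The one of Spred1 lay at a gene end (925 bp, 14.51-fold). Retinoic acid genes had a wide peak in 2 of 18 cases (11.1%, 1.38 to 34.7%), and 16 had any peak. The 2 were at Aldh1a2, which makes retinoic acid (986 bp inside the gene, 15.5-fold), and at the end of the receptor gene Rxrb (864 bp, 5.45-fold). Smooth muscle genes had a wide peak in 3 of 18 cases (16.7%, 3.58 to 41.4%), and 14 had any peak. The widest lay 83.0 kb from Itga8, an integrin gene (1088 bp, 17.5-fold). The next lay inside Mylk, the kinase gene of myosin light chain (890 bp, 10.2-fold). Fibroblast and matrix genes had a wide peak in 3 of 29 cases (10.3%, 2.19 to 27.4%), and 26 had any peak. The widest lay 22.7 kb from the collagen gene Col6a3 (1005 bp, 19.6-fold) and inside the collagen gene Col5a2 (887 bp, 36.8-fold). The intervals for the FGF, retinoic acid and fibroblast lists include the share over all genes.

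Lists of other cell types overlapped in share with several of those above. Endothelial genes had a wide peak in 2 of 20 cases (10.0%, 1.23 to 31.7%), and 10 of the 20 had any peak. The 2 lay 19.7 kb from the transcription factor gene Fli1 (920 bp, 11.4-fold) and 78.8 kb from Cdh5, the cadherin gene of endothelium (869 bp, 6.98-fold). Cardiac genes had a wide peak in 2 of 28 cases (7.14%, 0.877 to 23.5%), and 16 of the 28 had any peak. These lay 16.5 kb from Nkx2-5, a heart transcription factor gene (1041 bp, 15.0-fold), and 2.15 kb from Gata5 (872 bp, 22.5-fold). Lung epithelial genes had a wide peak in 0 of 30 cases, and 11 had any peak. Taken as 3 counts this allows a share of up to 10.0%, and the exact interval reaches 11.6%. Their widest peaks were at Pdpn (619 bp, 8.63-fold) and near Foxa2 (357 bp, 20.7-fold). Blood and immune cell genes had one in 0 of 20 cases, with 3 having any peak, which allows up to 15.0% (exact interval to 16.8%). Liver genes had one in 0 of 15, with 2 having any peak, which allows up to 20% (exact interval to 21.8%). All 3 limits lie above the 2.42% of all genes, so these zeros do not set the lists apart. The widest peak of the blood list was near Runx1 (640 bp), and those of the liver list were near Fgg (519 bp) and Ttr (204 bp). Genes of cytoplasmic ribosomal proteins had a wide peak in 1 of 36 cases (17 of the 36 had any peak), at the end of Rpl7 (994 bp, 8.58-fold). Rpl27 had the next widest peak (772 bp, 13.5-fold).

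**Figure D5:**
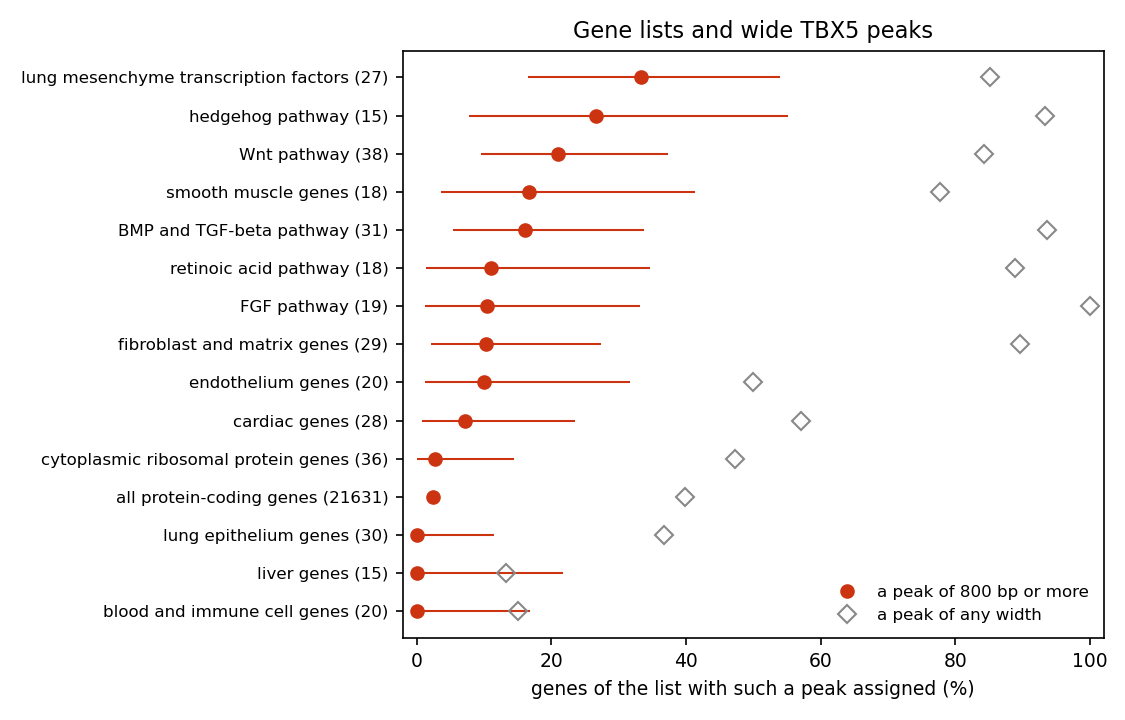
Percent of the genes of each list, with the number of genes in brackets, that have an assigned peak of 800 bp or more (filled, with exact 95% binomial intervals) or of any width (open). Lung mesenchyme transcription factors stand at 33.3% for wide peaks, against 2.42% for all 21631 protein-coding genes. The shares are not scaled by the number of peaks per gene.

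The T-box genes of the lung each had at least 1 wide peak among 10 to 30 peaks, where 6.08% of all genes with a peak had a wide one. Over all peaks, 2.75% were wide. Tbx5 had 1 among its 30 peaks, inside the gene on chromosome 5 from 119810745 to 119811823 (1079 bp, 22.0-fold). Tbx4 had 1 of 10 (823 bp, 53.8-fold) and Tbx2 1 of 12, over a gene end (1100 bp, 28.6-fold). Tbx3 had 3 of 17. Ptch1 had 1 of 22, inside the gene (860 bp, 17.2-fold). These counts are small, and those of Tbx5 and Ptch1 are near the share over all peaks. Foxf1, a forkhead gene of visceral mesenchyme, had 9 peaks and none was wide. Its widest was 677 bp at a gene end (8.01-fold). The widest peaks of Gli1, a hedgehog target gene (694 bp), Fgf10, the branching ligand (431 bp), Bmp4 (351 bp) and Wnt2 (226 bp) were also narrower. Shh, Nkx2-1, Nppa and Alb had 0 peaks of any width.

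Wide peaks were found on all 19 autosomes and chromosome X. Their share of a chromosome's peaks ran from 1.20% on X (5 of 415, 0.392 to 2.79%) to 3.97% on chromosome 13 (59 of 1485, 3.04 to 5.10%). Of the 652 wide peaks not at a protein-coding gene end, 45 (6.90%, 5.08 to 9.13%) had the end of a long non-coding RNA gene at 1 kb or less, against 4.73% (4.46 to 5.01%) of narrower peaks so placed. Within each band of fold the intervals overlapped. The shares were 9.57% (4.47 to 17.4%) and 4.88% (4.57 to 5.21%) under 10-fold. At 10-fold or more they were 6.45% (4.56 to 8.82%) and 4.20% (3.66 to 4.79%). One microRNA hairpin, that of Mir6991, lay inside a wide peak, the peak of 1787 bp named above. The hairpin of Mir199b lay 401 bp from a wide peak of 30.5-fold on chromosome 2 from 32318970 to 32320336.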

How the data were processed

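The series held 2 TBX5 ChIP libraries and 1 input library of E14.5 CD-1 lung, represented by 1 deposited peak list with no value per library, so depth is unknown. Build mm10 was used with Bowtie2, SAMtools and MACS2, per the submitters' processing notes. Versions, settings, pooling and use of the input were not given in the sources used here. Units were read from the 10-column layout and the values. The deposited list gives, by the authors' caller, a fold (a linear ratio over local background), −log10 p- and q-values at the summit, a score and the summit offset in bp, of which the score and the p-values were not used further. Starts are given 1-based.

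Width was the last minus the first 0-based coordinate. Genes were 21631 protein-coding genes of RefSeq GRCm38.p6, given as first and last base. Starts, strand and the 250 bases before a start came from a RefSeq table with 21045 starts of 17274 genes and none on chromosome 18. Shares carry exact 95% binomial intervals. The computations were checked on simulated positions and done in Python 3.11.15 with numpy 2.4.6, pandas 2.3.3 and scipy 1.17.1.

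Named were the 10 widest peaks, the 10 genes with most wide peaks, for each list the 2 genes whose peak was widest (some are not reported here), the 5 wide peaks of highest and of lowest fold, the 5 with the most off-centre summit, the 5 widest over a gene end, the 5 widest with no gene end within 100 kb, and 14 genes always given. The members, lists and rules were chosen with earlier results of these data known. The bands at 10-fold by width, the reach around starts, the CG content by width and the Hox clusters were added after seeing the data.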

Additional observations from a re-analysis of the deposited data

How the results depend on the processing

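The split by fold was the setting that moved positions most. The gene-end share of wide peaks (16.5%) became 46.9% under 10-fold and 7.62% at 10-fold or more, the share inside genes (41.9%) 29.9% under 10-fold, and that between genes (41.6%) 23.2% under and 47.0% at or above 10-fold. The gene-end share was 13.1% within 500 bp, 21.3% within 2 kb, 22.5% with genes of all kinds and 13.8% for gene ends covered by the peak, where narrower peaks had 14.1%, 21.3%, 22.5% and 8.64%. A wider peak covers an end more easily, so the last pair is not comparable. With genes of all kinds 45.8% lay inside and 31.6% between genes. The excess of wide peaks under 10-fold at gene ends was present under each alternative run, at 36.3% for peaks of 600 bp or more (narrower 19.8%), 36.7% within 500 bp (16.2%) and 55.9% within 2 kb (24.3%), and at 42.2% (19.6%) for a limit on −log10 q in place of fold. These limits under 10-fold were chosen after seeing the data.

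The number of wide peaks was 2332, 1324, 282 and 100 at limits of 600, 700, 1000 and 1200 bp. The median distance of the summit from the centre was 14.6% of the width at 10-fold or more, 23.1% under it and 19.4% at gene ends (narrower 11.1%). The share with another summit near was 48.3% within 5 kb and 88.7% within 50 kb (narrower 37.7% and 81.9%), and 66.3% for peaks of 1000 bp or more. Genes with a wide peak numbered 249 with an assignment limit of 10 kb, 1375 from 600 bp and 204 from 1000 bp. The core GGTGTG in place of AGGTGTGA was in 12.3% of windows under wide peaks. Of the alternatives on counts in gene lists, 30 moved the count by more than 1.5 times or away from 0, and 40 did not. The 40 include counts that stayed at 0, as for the liver list at each setting.

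Motif counts around summits and over whole peaks were not run, since no genome sequence was used here. No paired analysis was possible because the 1 list carries no value per library, and no library was left out for the same reason. Depth is unknown, the caller's settings decide where neighbouring peaks are joined, and whole lung mixes cell types.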
